A study of Mus musculus with 13 samples.

Results

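Fam13a and 4 further genes that lie at human loci for body fat distribution or insulin resistance are described here in RNA of mouse fat cells. They were taken by symbol from a list of 6 genes: Fam13a, Grb14, Cobll1, Pepd, Lyplal1 and Tbx15. The first 5 were found among the 11761 gene rows of the deposited expression table, and Tbx15, a T-box transcription factor gene, was not analysed here. They were chosen by their HFD and chow levels in these same 6 libraries as well as by their loci, so their own levels and differences are given as a description, with no test.

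RNA bound to ribosomes was recovered from epididymal white fat of Adipoq-NuTRAP mice on the C57BL/6J background, fed a high-fat diet (HFD) for 10 weeks or chow (6.4% fat by weight) for 10 weeks, with 3 libraries per diet. Both diets share the NuTRAP transgene, which the adiponectin gene's regulatory elements switch on in fat cells, so that an anti-GFP antibody can pull the ribosomes of those cells out of ground whole fat. Whether replicates come from different animals is not in the labels, and a p-value here covers only how far libraries of a diet scatter, which could be technical scatter. Values are CPM, read counts scaled to an effective size of each library, which need not be its plain read total. They are not divided by gene length, so levels are compared between diets and not between genes.

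Genetic studies in people tie these loci to how fat is shared out between hips and waist, and to fasting insulin. The genes beside them do unlike things in a cell. Grb14 is an adaptor that binds the activated insulin receptor and curbs its kinase, and Cobll1, its neighbour on the chromosome, is a relative of the actin-nucleating protein cordon-bleu. Pepd is prolidase, which splits dipeptides ending in proline such as those left when collagen is broken down. Lyplal1 is a serine hydrolase of the lysophospholipase-like family, whose relatives take palmitate off proteins.

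By RefSeq gene positions on GRCm38.p6 (mm10), Fam13a spans chr6:58933536-59024502, Grb14 chr2:64912476-65022766, Cobll1 chr2:65088339-65239398, Pepd chr7:34912407-35044708 and Lyplal1 chr1:186087732-186117310. All 5 are protein-coding. Grb14 and Cobll1 are next to each other with 65.6 kb between them and no protein-coding gene in the gap. Where another annotated gene overlaps one of the 5, that gene is not among the rows used.

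RefSeq promoters (GRCm38.p6, 250 bases before to 50 after the annotated start, read along the gene's strand) were found for all 5 genes. Those of Fam13a and Grb14, which had the largest differences between the diets, and of Lyplal1, which had the smallest, are shown 5′ to 3′. Capitals mark 3 motifs on either strand: AGGTCA, the half-site of nuclear receptors such as PPARG, CCAAT, and GGGCGG, the GC box.
Fam13a (chr6:59024453-59024752, minus strand): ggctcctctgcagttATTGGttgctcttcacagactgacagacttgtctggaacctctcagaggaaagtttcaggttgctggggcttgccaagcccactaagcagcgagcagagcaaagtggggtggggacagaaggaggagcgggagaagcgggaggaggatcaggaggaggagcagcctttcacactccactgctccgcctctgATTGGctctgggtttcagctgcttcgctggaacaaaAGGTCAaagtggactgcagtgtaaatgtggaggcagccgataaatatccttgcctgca
Grb14 (chr2:65022717-65023016, minus strand): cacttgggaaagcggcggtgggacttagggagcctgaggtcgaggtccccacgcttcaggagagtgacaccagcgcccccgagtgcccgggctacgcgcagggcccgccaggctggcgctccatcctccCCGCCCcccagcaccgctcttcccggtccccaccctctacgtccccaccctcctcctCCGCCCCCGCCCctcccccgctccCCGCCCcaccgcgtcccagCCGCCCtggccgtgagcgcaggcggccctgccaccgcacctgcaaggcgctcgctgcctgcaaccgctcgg
Lyplal1 (chr1:186117261-186117560, minus strand): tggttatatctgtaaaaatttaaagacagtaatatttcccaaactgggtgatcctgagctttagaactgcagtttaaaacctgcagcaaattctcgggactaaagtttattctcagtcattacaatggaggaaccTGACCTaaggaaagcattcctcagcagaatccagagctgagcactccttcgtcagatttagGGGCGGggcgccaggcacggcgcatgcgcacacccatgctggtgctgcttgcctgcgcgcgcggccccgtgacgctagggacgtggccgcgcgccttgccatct

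The promoters differed in base composition. That of Fam13a held 6 CpG pairs at 55.0% G and C, fewer CpG pairs than in most of the 11082 promoters of tested genes (12.1% had fewer). Those of Grb14 and Cobll1 held 30 and 39 CpG pairs, each at 75.3% G and C. The promoter used for Cobll1, chr2:65238742-65239041 on the minus strand, lies wholly inside the gene span given above, so its start is an internal one. An annotated start need not be that of the transcript the authors counted. Pepd had 12 CpG pairs and Lyplal1 had 17.

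AGGTCA occurred once in the Fam13a promoter, at bases 243 to 248 of the 300, just before the annotated start, and once in that of Lyplal1, while 12.4% of promoters hold it. The full site, AGGTCA repeated in the same direction with 1 base between, was in none of the 5, and in 0.018% of promoters. CCAAT occurred at 2 places in Fam13a and in none of the other 4 (36.6% of promoters hold it). GGGCGG occurred at 5 places in Grb14, 2 in Pepd and 1 in Lyplal1, and in neither Fam13a nor Cobll1 (62.7% of promoters). CAGAC, the half-site of SMAD proteins, occurred at 3 places in Fam13a alone among the 5 (47.1% of promoters), and TATAAA in none of the 5 (7.13%). CACGTG, an E-box, occurred once in Pepd (10.1%). A match is a description of letters and does not show binding.

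Fam13a RNA was far lower on HFD. It stood at 53.8, 44.0 and 49.2 CPM in HFD libraries 1, 2 and 3, against 541, 455 and 936 CPM in chow libraries 1, 2 and 3. Every HFD library lay far below every chow library, and the lowest chow library was 8.46 times the highest HFD library. The means were 49.0 ± 4.90 CPM on HFD and 644 ± 256 CPM on chow (SD, n = 3 each), which puts HFD at 7.61% of chow. The HFD libraries were close together, and the spread was in chow, where replicate 3 stood above the other two.

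These levels rest on 1407 to 1937 reads in each HFD library and 6952 to 14768 in each chow library. Chow replicate 3, the highest, was also the shallowest. On the log2(CPM + 1) scale the difference, HFD minus chow, was -3.62 (SE 0.24, 95% interval -4.15 to -3.09), and -3.32 without chow replicate 3. Ranked from the most negative, it was number 9 of the 11643 genes tested throughout, those averaging 1 CPM or more.

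Grb14, the insulin receptor's inhibitory adaptor, was lower on HFD too, by much less. It stood at 38.9, 32.4 and 42.8 CPM in HFD libraries 1, 2 and 3, against 66.7, 110 and 83.3 CPM in chow libraries 1, 2 and 3. The diets did not overlap, and the HFD mean was 43.9% of the chow mean (38.0 ± 5.23 against 86.6 ± 21.8 CPM, SD, n = 3 each). The log2 difference was -1.15 (SE 0.19), with chow replicate 2 the highest library.

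Cobll1 did not separate the diets. It stood at 76.1, 73.5 and 103 CPM in HFD libraries 1, 2 and 3, against 103, 96.3 and 106 CPM in chow libraries 1, 2 and 3. HFD replicate 3 lay within the chow range, and the other HFD libraries lay below it. The log2 difference was -0.29 (SE 0.15, 95% interval -0.62 to 0.05), and -0.44 without HFD replicate 3.

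Pepd, the prolidase gene, was a little lower in every HFD library. It stood at 74.0, 66.3 and 71.5 CPM in HFD libraries 1, 2 and 3, against 83.3, 93.7 and 111 CPM in chow libraries 1, 2 and 3. The gap between the diets was narrow, with the lowest chow library 1.13 times the highest HFD library. The log2 difference was -0.43 (SE 0.14).

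Lyplal1 was at like levels in both diets. It stood at 32.0, 40.2 and 38.9 CPM in HFD libraries 1, 2 and 3, against 30.1, 33.4 and 37.3 CPM in chow libraries 1, 2 and 3. The ranges overlapped, and the log2 difference of 0.14 (SE 0.15) had a 95% interval of -0.20 to 0.47, which spans 0. Chow replicate 3 held only 277 reads of this gene, against 697 to 1530 in the other libraries.

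**Figure D1:**
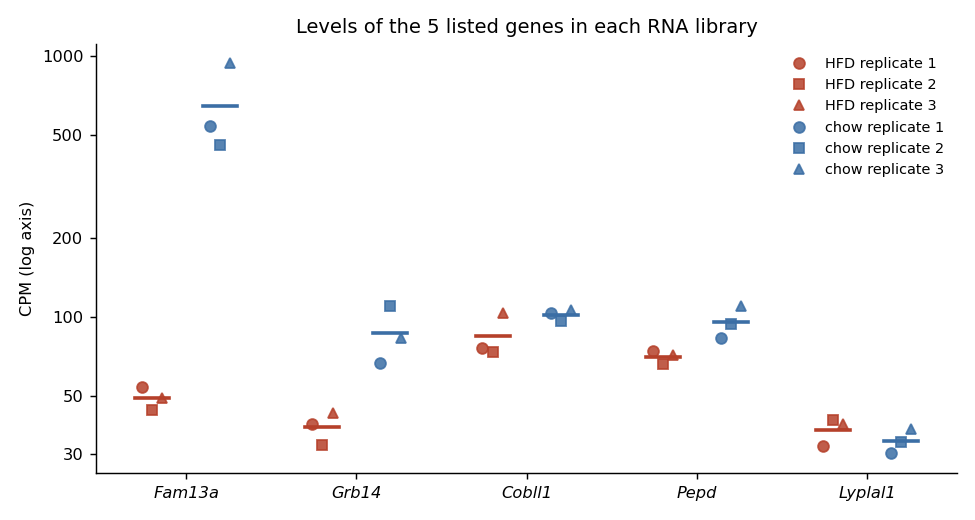
CPM (log axis) of the 5 genes in each of the 3 HFD and 3 chow libraries, with each diet's mean as a bar and the replicate as the marker shape. Fam13a separates the diets by a wide gap (44.0 to 53.8 CPM on HFD and 455 to 936 CPM on chow), Grb14 and Pepd by smaller ones, and Cobll1 and Lyplal1 overlap.

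Of the 5 genes, 3 (Fam13a, Grb14 and Pepd) were past a limma adjusted p of 0.05 over all tested genes, each lower on HFD. Over all 11643 genes 35.1% passed, 19.1% higher and 16.0% lower on HFD (2221 and 1863 genes, against 2515 and 1334 with equal totals and 4404 and 378 with the median fat cell identity gene set equal). The median identity gene set equal ended the calls of Grb14 and Pepd and put Lyplal1 past the threshold, and Pepd was also short of it with equal totals and without any 1 library other than chow replicate 1. Of all genes 50.2% had no overlap between the diets, 25.0% not overlapping and lower and 25.2% not overlapping and higher on HFD, and the same 3 of these 5 were not overlapping and lower. Nothing is read from these counts, since the contrast was known when the genes were chosen.

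How these falls look depends on what each library is scaled to. With libraries set so that the median of 32 fat cell identity genes is equal, the median of all genes moves from near 0 to 0.45, and the log2 difference, HFD minus chow, becomes -3.14 for Fam13a and -0.67 for Grb14. These 32 genes are not a reference free of diet. In the reported fit 14 of them were lower and 5 higher on HFD (limma adjusted p under 0.05), with a median log2 difference of -0.52. Setting their median equal takes that fall out and raises the difference of every gene. This scaling turns Pepd to 0.05 and Cobll1 to 0.19, and raises Lyplal1 to 0.61. Fam13a and Grb14 were thus lower on HFD under all 3 other scalings, while the direction of Pepd and Cobll1 rests on the scaling.

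**Figure D2:**
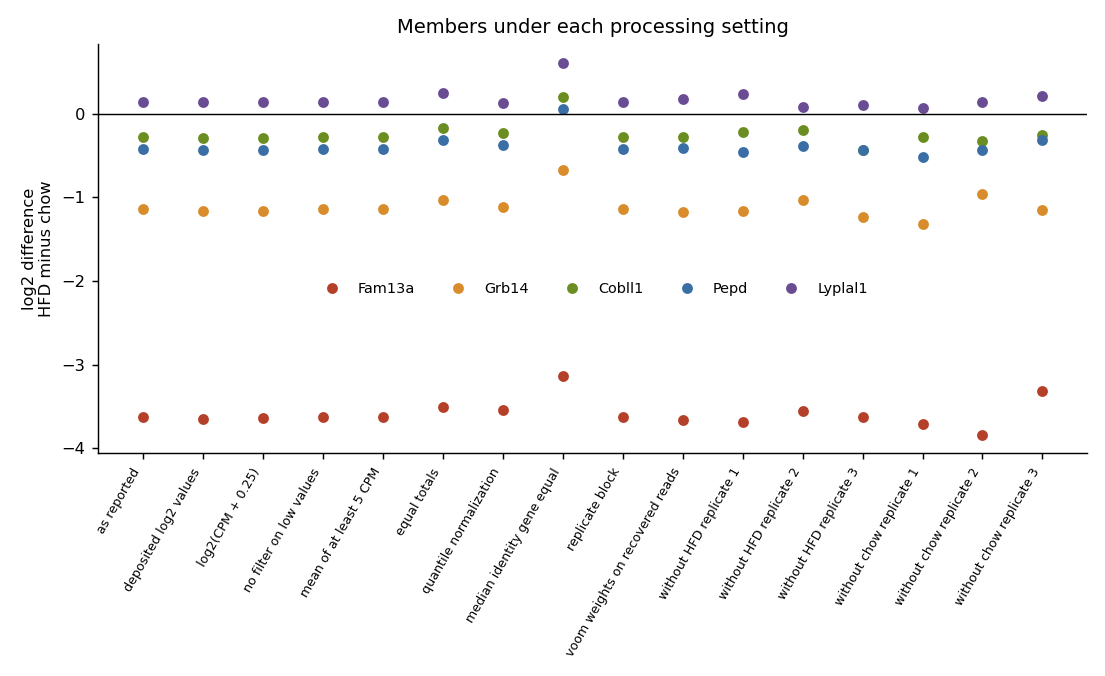
Log2 difference (HFD minus chow) of the 5 genes as reported and under each of 15 other settings. Fam13a lies between -3.84 and -3.14 throughout and Grb14 below 0, whereas Pepd and Cobll1 move above 0 when the median identity gene is set equal.

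Ratios of 2 genes within a library are free of that scaling. The ratio of Fam13a to Adipoq, the adiponectin gene of fat cells, was 0.0278 to 0.0377 in HFD libraries and 0.221 to 0.342 in chow libraries. The ratio for Grb14 was 0.0205 to 0.0328 on HFD and 0.0304 to 0.0533 on chow, which overlap, and those for Pepd and Cobll1 overlapped as well. Lyplal1 to Adipoq went the other way, at 0.0208 to 0.0298 on HFD and 0.0136 to 0.0162 on chow. Adipoq itself was lower on HFD, at 1477 ± 150 CPM on HFD and 2260 ± 418 CPM on chow (SD, n = 3 each), a log2 difference of -0.60 (limma adjusted p 0.0254). The ratio of Fam13a was thus lower on HFD although its denominator was lower too, whereas the CPM of Lyplal1 overlapped between the diets, with a difference of 0.14.

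Other cell types' markers moved with diet. The 10 fat cell markers summed to 15278 to 17381 CPM in HFD libraries and 17201 to 26998 CPM in chow libraries, with 5 lower, 1 higher and 4 not past the threshold (limma adjusted p). These markers of the labelled cell type were abundant in every library. The 1 higher was Lep, the leptin gene, which made up much of the HFD sums. Lep stood at 5149, 6472 and 4871 CPM in HFD libraries 1, 2 and 3, against 1193, 1468 and 1010 CPM in chow libraries 1, 2 and 3. The overlap of the sums thus rests on Lep. Of 15 macrophage markers 14 were higher and 1 lower, with sums of 371 to 585 CPM on HFD and 83.8 to 109 CPM on chow. Of 12 endothelial markers 11 were higher (166 to 325 CPM on HFD, 34.5 to 90.7 CPM on chow), and of 9 tested smooth muscle and pericyte markers 8 were higher (1528 to 1926 CPM on HFD, 1061 to 1200 CPM on chow). Mcam, the 1 of these 9 that did not pass, made up much of those last sums. It stood at 843 to 936 CPM on HFD and 955 to 1075 CPM on chow, so the sums understate the rise of the other markers. Fibroblast markers summed to 2234 to 4506 CPM on HFD and 2641 to 3853 CPM on chow, with 4 of 12 higher and 1 lower. Of 10 mesothelial markers 5 were higher (67.3 to 194 CPM on HFD, 26.0 to 46.0 CPM on chow). Their part in the members' differences was not tested. Fewer cells of a type and less RNA per cell cannot be told apart in these libraries.

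Neither relative of Fam13a passed as lower on HFD. Fam13b was higher in every HFD library, at 91.8, 86.2 and 91.8 CPM in HFD libraries 1, 2 and 3, against 65.8, 61.4 and 50.9 CPM in chow libraries 1, 2 and 3. Its log2 difference was 0.60 (SE 0.13, limma adjusted p 0.00765). Fam13c was at 15.1 ± 0.540 CPM on HFD and 16.2 ± 3.49 CPM on chow (SD, n = 3 each), a difference of -0.08 that did not pass (limma adjusted p 0.770). Within a library, the ratio of Fam13a to Fam13b was 0.511 to 0.586 on HFD and 7.41 to 18.4 on chow. The ratio was thus lower in every HFD library than in any chow library.

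The other adaptor of Grb14's family that was measured, Grb10, also binds the insulin receptor. It stood at 67.6, 64.9 and 70.5 CPM in HFD libraries 1, 2 and 3, against 74.0, 74.0 and 86.8 CPM in chow libraries 1, 2 and 3. The diets did not overlap, but the log2 difference of -0.20 (SE 0.12, limma adjusted p 0.227) did not pass. The ratio of Grb14 to Grb10 was 0.500 to 0.607 on HFD and 0.901 to 1.48 on chow, so Grb14 was lower relative to its relative in every HFD library.

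The receptor that both adaptors bind was lower itself. Insr, named here after its values were seen, stood at 316 ± 26.3 CPM on HFD and 539 ± 83.4 CPM on chow (SD, n = 3 each), with a log2 difference of -0.76 (SE 0.15, limma adjusted p 0.00404). With the median identity gene set equal it was -0.28 (adjusted p 0.180) and did not pass. The ratio of Grb14 to Insr overlapped between the diets, at 0.113 to 0.131 on HFD and 0.120 to 0.245 on chow.

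Of 18 tested genes of the insulin receptor and its proximal partners, 7 fell, 0 rose and 11 did not pass, with a median log2 difference of -0.24 against -0.0036 over all genes. That is 38.9% lower, beside 16.0% lower and 19.1% higher over all genes. At an unadjusted p under 0.05 limma had 1 higher, Ptpn1, likewise named after its values were seen, and voom weights on recovered reads called 0 higher. Irs1, the receptor's main docking protein, stood at 136 ± 9.39 CPM on HFD and 439 ± 27.8 CPM on chow (SD, n = 3 each), a log2 difference of -1.69 (SE 0.12, limma adjusted p 1.88e-05). Pik3r1, the regulatory subunit of phosphoinositide 3-kinase, differed by -1.56 (SE 0.21, limma adjusted p 0.000515). With the median identity gene set equal 2 of the list fell and 3 rose, and both of these genes still fell.

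Cobl, the founding relative of Cobll1, is an actin nucleator. It was low, at 3.01, 3.86 and 7.46 CPM in HFD libraries 1, 2 and 3, against 1.60, 1.65 and 1.62 CPM in chow libraries 1, 2 and 3. Its value in chow replicate 3 lay nearest to the level of 3 reads, which is 0.404 CPM there. Its rise of 1.06 (SE 0.31, limma adjusted p 0.0240) leaned on HFD replicate 3, without which it was 0.75 (adjusted p 0.0934). Without chow replicate 2 or chow replicate 3 the difference was 1.07 and 1.06, just short of the threshold (adjusted p 0.0549 and 0.0509), and with voom weights 1.47 (adjusted p 0.0515). With quantile normalization it was 0.45 (adjusted p 0.347).

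Around Pepd in the handling of proline, genes went both ways. Of 14 other tested proline peptidase and proline metabolism genes, Pepd left out, 5 were higher, 3 lower and 6 not past the threshold, with a median of 0.14. That is 57.1% past the threshold, beside 35.1% of all genes. Prodh, which starts proline breakdown in mitochondria, fell to 44.9 ± 4.05 CPM on HFD, against 119 ± 16.0 CPM on chow (SD, n = 3 each), a log2 difference of -1.39 (limma adjusted p 0.000126). Aldh4a1, the next enzyme of that route, fell by 0.51 on the log2 scale (limma adjusted p 0.0181), and -0.03 (adjusted p 0.903) was left with the median identity gene set equal. Leaving out HFD replicate 2, HFD replicate 3 or chow replicate 2 ended its call too (adjusted p 0.0681, 0.0514 and 0.0646), as did equal totals (0.0514). Prcp, a lysosomal carboxypeptidase that cuts after proline, rose by 1.72 and Dpp4, a surface dipeptidyl peptidase that is also a fibroblast progenitor marker here, by 1.48 (limma adjusted p 0.000211 and 0.00186).

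Among genes listed for enzymes that take palmitate off proteins and for their relatives, 1 passed the test. Of 7 other tested genes of this list, Lyplal1 left out, 1 rose, 0 fell and 6 did not pass, with a median of 0.18. That is 14.3% past the threshold, beside 35.1% of all genes. At an unadjusted p under 0.05 limma had 1 lower, Lypla2, named after its values were seen, and voom weights called 0 lower. The 1 that rose was Ppt2, a lysosomal thioesterase gene, at 36.4 ± 3.59 CPM on HFD and 24.1 ± 2.57 CPM on chow (SD, n = 3 each), a log2 difference of 0.58 (limma adjusted p 0.0142). Leaving out HFD replicate 1 or HFD replicate 3 ended this call (adjusted p 0.0538 and 0.0526). The ratio of Lyplal1 to Lypla1, its relative, overlapped between the diets at 0.225 to 0.261 on HFD and 0.218 to 0.295 on chow.

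Among T-box factors 3 were tested, Tbx3, Tbx18 and Mga, and 0 passed over all genes with limma (adjusted p 0.734, 0.898 and 0.0817). At an unadjusted p under 0.05 Mga alone passed, with a difference of 0.39, and voom weights called 0.

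Genes next to the members on the chromosome did not follow one pattern. Herc3, which lies 13.1 kb from Fam13a, and Tigd2 on its other side differed by 0.14 (95% interval -0.22 to 0.49) and -0.03 (-0.39 to 0.32) and did not pass (limma adjusted p 0.534 and 0.892). Herc3 stood at 48.8, 49.9 and 44.9 CPM in HFD libraries 1, 2 and 3, against 53.4, 41.9 and 36.5 CPM in chow libraries 1, 2 and 3. Both intervals end far short of the difference of Fam13a.

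Around Grb14 and Cobll1 the next listed genes were lower. Fign, a gene of the microtubule-severing fidgetin ATPase 814 kb from Grb14, stood at 5.58, 5.82 and 4.29 CPM in HFD libraries 1, 2 and 3, against 25.8, 21.3 and 19.8 CPM in chow libraries 1, 2 and 3. The diets were far apart, with a log2 difference of -1.90 (SE 0.19, limma adjusted p 0.000108). Ttc21b, a ciliary transport gene 944 kb beyond Cobll1 with 5 protein-coding genes between that were not analysed here, fell by 0.69 on the log2 scale (limma adjusted p 0.00962), and -0.24 (adjusted p 0.453) was left with the median identity gene set equal. Between these 2 neighbours Grb14 and Cobll1 themselves differed: their ratio was 0.415 to 0.511 on HFD and 0.646 to 1.14 on chow.

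Pepd lies 1.71 kb from Cebpg, a C/EBP family factor gene. Cebpg stood at 165, 186 and 186 CPM in HFD libraries 1, 2 and 3, against 236, 218 and 307 CPM in chow libraries 1, 2 and 3. It was lower on HFD with no overlap, and its fall of 0.48 on the log2 scale (limma adjusted p 0.0313) was close in size to that of Pepd. Like Pepd it had no fall left when the median identity gene was set equal (-0.0008, adjusted p 0.997), and leaving out any HFD replicate, 1, 2 or 3, ended its call (adjusted p 0.101, 0.0679 and 0.0739). Kctd15 on the other side differed by 0.27 (limma adjusted p 0.304), and by 0.73 (adjusted p 0.0496) with the median identity gene set equal. Beside Lyplal1, Eprs (0.06, limma adjusted p 0.759) and Tgfb2 (0.49, adjusted p 0.190), a TGF-beta ligand gene at 1.86 ± 0.380 CPM on HFD and 1.03 ± 0.0683 CPM on chow (SD, n = 3 each), did not pass. With the median identity gene set equal Eprs differed by 0.54 (adjusted p 0.0455).

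**Figure D3:**
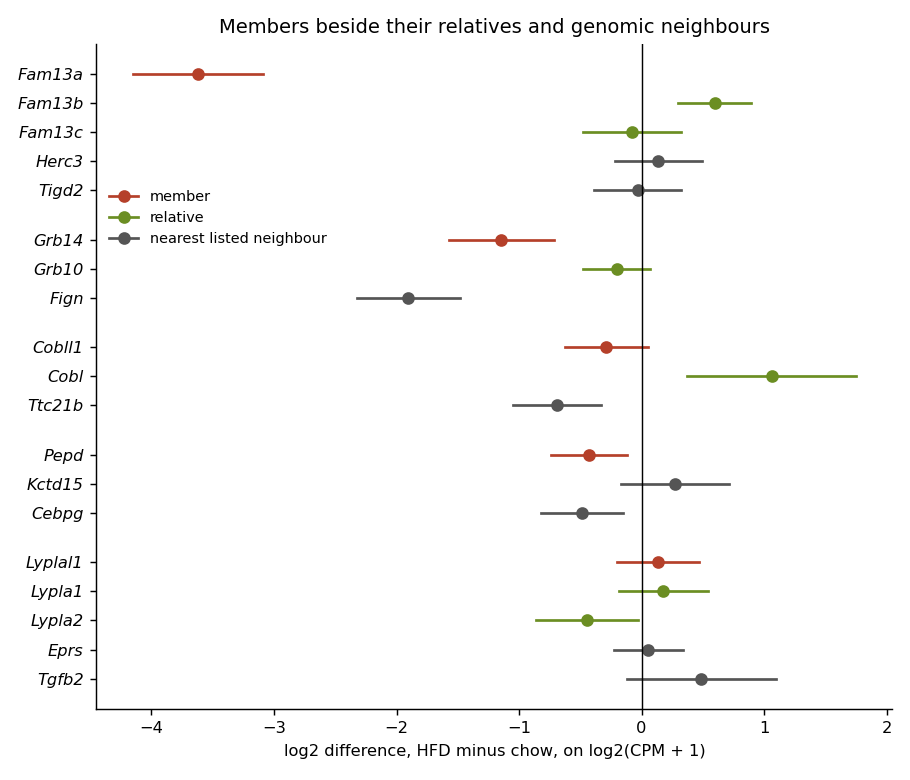
Log2 difference (HFD minus chow) on log2(CPM + 1), with its 95% interval from limma, for the 5 members, their relatives and their nearest listed neighbours. Fam13a at -3.62 stands apart from Fam13b (0.60), Fam13c, Herc3 and Tigd2, whereas Fign (-1.90) lies below Grb14 (-1.15).

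**Figure D4:**
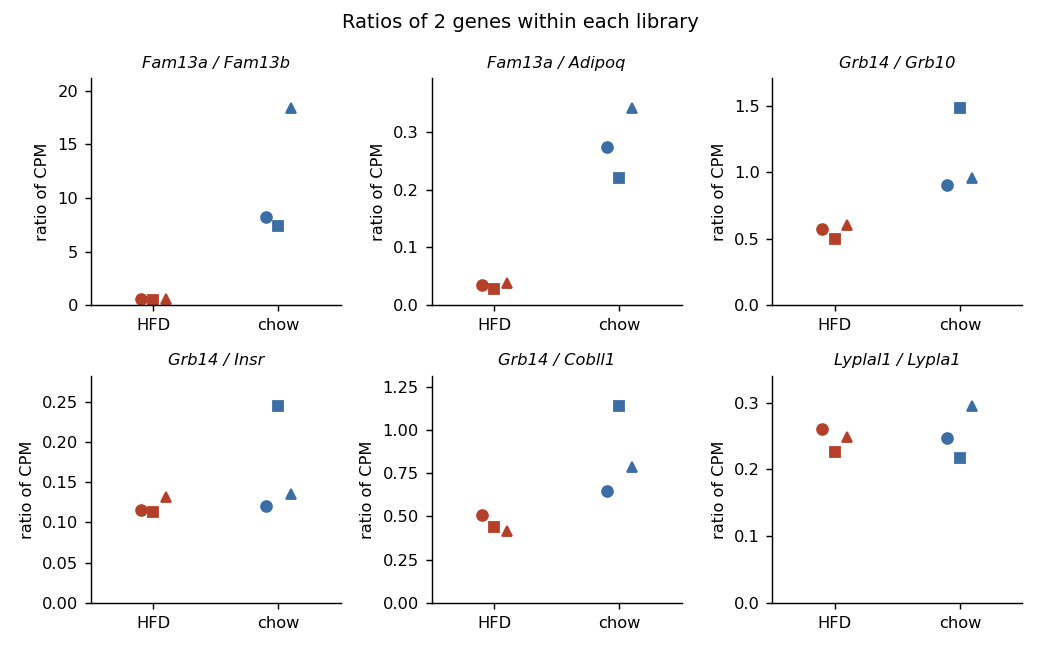
Ratios of the CPM of 2 genes in each HFD and chow library (the axis starts at 0, and marker shape is the replicate). Fam13a to Fam13b, Fam13a to Adipoq, Grb14 to Grb10 and Grb14 to Cobll1 do not overlap between the diets, while Grb14 to Insr and Lyplal1 to Lypla1 do.

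Other genes named for fat-distribution or insulin-resistance loci went both ways. Of 64 such genes, listed from general knowledge of human genetics, 52 were tested: 15 fell, 10 rose and 27 did not pass, with a median log2 difference of -0.0015 against -0.0036 over all genes. That is 28.8% lower and 19.2% higher, beside 16.0% lower and 19.1% higher over all genes. The list shares genes with the 32 identity genes, of which 43.8% were lower. Irs1, Acvr1c, Cebpa, Plin1 and Pde3b are in both and fell, while Pparg and Lpl are in both and did not pass. The number of locus genes that fell was 9 without HFD replicate 2, and 5 fell and 20 rose with the median identity gene set equal.

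The largest fall was that of Irs1, given above. Fgf2, a fibroblast growth factor gene, stood at 12.5 ± 0.787 CPM on HFD and 32.0 ± 1.14 CPM on chow (SD, n = 3 each), a log2 difference of -1.30 (limma adjusted p 0.000177). Meis1, a homeobox factor gene, and Acvr1c, the activin receptor ALK7 of fat cells, differed by -1.22 and -1.06 (limma adjusted p 0.000980 and 0.000636). All 4 of these falls held with the median identity gene set equal, at -1.20, -0.84, -0.77 and -0.57 for Irs1, Fgf2, Meis1 and Acvr1c. Irs1 and Acvr1c are themselves among the 32 identity genes that set this scaling. The log2 difference of Fam13a was more negative than that of any of the 52, and that of Grb14 stood between those of Meis1 and Acvr1c.

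The largest rises were those of Fst, Eya2, Kcnj2 and Klf14. Fst, follistatin, which binds activins, stood at 10.2, 10.7 and 12.3 CPM in HFD libraries 1, 2 and 3, against 2.30, 1.92 and 1.36 CPM in chow libraries 1, 2 and 3. It separated the diets fully (log2 difference 2.09, limma adjusted p 0.000144). Eya2, a transcriptional cofactor gene, rose by 2.06 and Kcnj2, a potassium channel gene, by 1.97 (limma adjusted p 0.000753 and 0.00168). Both were low in chow. Eya2 stood at 1.35, 0.966 and 0.412 CPM in chow libraries 1, 2 and 3, the last near the level of 3 reads there (0.404 CPM). Kcnj2 stood at 0.914, 1.85 and 3.51 CPM in chow libraries 1, 2 and 3. Klf14, a zinc-finger factor gene at a locus for female fat distribution in people, rose with a 95% interval of 0.84 to 2.15 (limma adjusted p 0.00402). Klf14 stood at 41.1, 53.8 and 36.5 CPM in HFD libraries 1, 2 and 3, against 10.7, 11.6 and 24.9 CPM in chow libraries 1, 2 and 3, with chow replicate 3 the nearest to HFD.

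**Figure D5:**
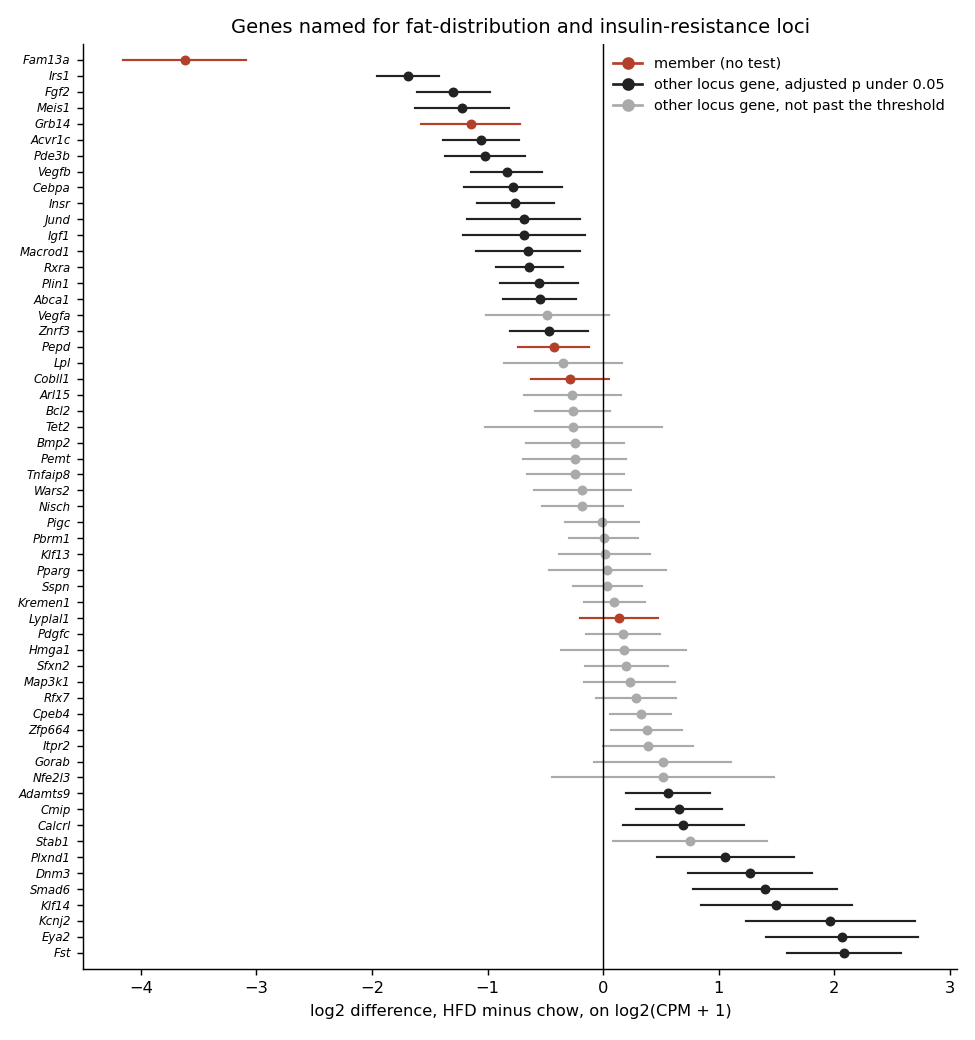
Log2 difference (HFD minus chow) on log2(CPM + 1) with its 95% interval from limma, for the 5 members (red, given with no test) and 52 other genes named for such loci (black where past an adjusted p of 0.05, grey where not), ordered by difference. Fam13a (-3.62) lies beyond Irs1 (-1.69), Grb14 falls among the lower genes, and Fst (2.09) is at the other end.

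The genes most like each member over the 6 libraries were found among the 8949 genes averaging 10 CPM or more, by the root mean square distance between log2(CPM + 1) values centred on each gene's mean. For Fam13a they were Cyp2e1 (distance 0.30), a cytochrome P450 gene, Cfd (0.36), the adipsin gene, and Gpx3 (0.36), a secreted glutathione peroxidase gene. Cyp2e1 stood at 237, 147 and 197 CPM in HFD libraries 1, 2 and 3, against 1846, 1898 and 2195 CPM in chow libraries 1, 2 and 3. All 3 were far lower in every HFD library than in any chow library and, like Fam13a, highest in chow replicate 3. They were picked for such likeness, so it is a description only.

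For Grb14 the nearest were Gfod2 (0.11), Sumf2 (0.12) and 1 of the 2 rows of Errfi1 (0.13), an inhibitor of the EGF receptor. Sumf2 stood at 44.6, 42.5 and 48.8 CPM in HFD libraries 1, 2 and 3, against 75.6, 110 and 105 CPM in chow libraries 1, 2 and 3. For Cobll1 they were Serpinb8 (0.04), Entpd5 (0.06) and Il1r1 (0.07), for Pepd Ncoa5 (0.03), Apeh (0.04) and Nr2f6 (0.05), and for Lyplal1 Nhp2 (0.03), Etf1 (0.03) and Tars (0.03). Small distances are easy to reach for genes that vary little, so they are compared within a member only.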

How the data were processed

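Polysome-bound RNA was compared between 3 HFD and 3 chow libraries, and the 7 chromatin samples were not analysed here. HISAT2, featureCounts, edgeR, Picard and build mm10 are named in the submitters' processing notes, with no role or version. The deposited values are log2 CPM per gene, made by the authors and rounded to 2 decimals. Their antilogs sum to 984422 to 1.18e+06 per library, the most in chow replicate 3, so the scaling was not to the plain read total. Each was turned back into CPM, and log2(CPM + 1) was tested, which understates changes of low genes.

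Genes averaging 1 CPM or more (11643) entered limma 3.58.1 under R 4.3.3, with trended eBayes, two-sided p-values and Benjamini-Hochberg adjustment over all of them at 0.05. The script was tested on simulated data. Steps between low values gave effective library sizes of 3.37e+07, 3.2e+07 and 3.94e+07 reads for HFD replicates 1, 2 and 3, and 2.32e+07, 3.25e+07 and 7.43e+06 reads for chow replicates 1, 2 and 3. A level of 3 reads was 0.0762 to 0.0938 CPM on HFD, 0.129 and 0.0924 CPM in chow replicates 1 and 2, and 0.404 CPM in chow replicate 3, for counting error only. All values under 20 reads came out whole within 0.1 of a read. The steps were chosen so that the lowest values came out whole, so this is in part by construction.

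Members and lists were chosen with earlier results of these data known, and some listed genes are not reported here. Named genes are the members, their family relatives and nearest listed neighbours, the 3 genes nearest each member in pattern, and the called genes of each list with the largest change (4 risen and 4 fallen for locus genes, 2 and 2 for others). Alternatives were 2 other pseudocounts, 2 filters, 3 scalings, a replicate block, voom weights on recovered reads, and leaving out each library.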

Additional observations from a re-analysis of the deposited data

How the results depend on the processing

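With the median identity gene set equal, 4404 genes were higher and 378 lower on HFD, with 20 locus genes higher and 5 lower, and 3 insulin receptor partners higher and 2 lower. The log2 difference, HFD minus chow, was then -3.14 for Fam13a, -0.67 for Grb14, 0.19 for Cobll1, 0.0518 for Pepd and 0.61 for Lyplal1. That scaling lifts all genes by construction. With equal totals 1 insulin receptor partner was higher. Leaving out 1 library gave 1162 to 1740 lower genes over all, the fewest without HFD replicate 3, and 9 to 13 lower locus genes, the fewest without HFD replicate 2. Fewer samples are tested there. Members kept their direction under these omissions, at -3.84 to -3.32 for Fam13a, -1.32 to -0.96 for Grb14, -0.44 to -0.20 for Cobll1, -0.52 to -0.32 for Pepd and 0.06 to 0.24 for Lyplal1. Of 24 other named genes put through all 15 settings (those nearest in pattern to a member were not), 17 kept their call, or stayed short of the threshold, in each. Cobl, Eya2 and Tgfb2 fell below the filter at 5 CPM and had no value there. In the other 14 settings 2 of these 3 (Eya2 and Tgfb2) kept their call, or stayed short of the threshold, in each.

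Same-numbered libraries deviated together with correlations across genes of 0.433, 0.232 and 0.0862, and each HFD library correlated best with its own number in chow. The labels do not say whether the numbers are pairs, so the reported fit did not take them as such, and a shared batch was not tested. The replicate block gave 2594 higher and 2245 lower genes. Chow replicate 3, at an effective library size of 7.43e+06 reads, limits low genes most.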
